A study of Mus musculus with 9 samples.

Results

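The genes described here encode 10 RGS proteins, regulators of G protein signalling, measured in primary mouse osteoblasts after treatment with parathyroid hormone peptides. They are Rgs2, Rgs3, Rgs4, Rgs5 and Rgs16 of the R4 subfamily, Rgs10, Rgs12 and Rgs14 of the R12 subfamily, and Rgs17 and Rgs19 of the RZ subfamily. They were picked by symbol, with earlier results of these data on Rgs2 known. Each was read from its transcript cluster (a group of probes for a transcript region) with the highest mean over 9 arrays. They stand for 10 of 22180 genes with a single-symbol cluster. Cells isolated from the calvaria (skull caps) of C57BL/6J pups 7 to 10 days old were used at passage 2, differentiated from day 3 and deprived of serum for 24 h from day 10. They were then kept for 4 h with 100 nM hPTH(1-34), a human hormone fragment and agonist of the receptor Pth1r, with 1 µM bPTH(7-34), a bovine fragment that lacks the first residues, carries a D-tryptophan and a tyrosine substitution and is used to block Pth1r, or with vehicle. Each group had 3 Affymetrix Mouse Gene 2.0 ST arrays, and no genetic change is named for any group. The cells of each replicate were prepared separately per the series text, which leaves unsaid whether the treatments shared a preparation.

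RGS proteins speed up GTP hydrolysis on activated G protein alpha subunits and so shorten the signal of a receptor. Their subfamilies differ in the alpha subunits they act on, and RGS2 acts mainly on the Gq class. Pth1r couples to Gs, which raises cAMP, and also to Gq, and Rgs2 is known as a gene that cAMP-raising hormones induce in osteoblasts.

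All 9 arrays had medians between 1.67 and 1.76 on the log2 scale, and arrays correlated at 0.977 to 0.982 within groups and at 0.972 to 0.985 between groups. A background limit was taken from 1091 clusters of olfactory receptors, genes of the olfactory neurons: 95% of their means over the vehicle arrays lay at or under 1.68 on the log2 scale. This limit fell within the range of the array medians, and the share of all clusters above it was not counted. Of 9 osteoblast markers measured, 6 lay above the limit on all 9 arrays, namely Col1a1, Col1a2, Sparc, Alpl, Ibsp and Phex. Sp7 lay above it on 3 arrays, and Bglap and Dmp1, genes of mature osteoblasts and osteocytes, on 0 arrays. Ibsp ran from 2.29 to 5.09 and Phex from 2.14 to 4.47. Of 10 macrophage and blood cell markers 8 lay above the limit on all 9 arrays, and of 9 endothelial markers 1, Tek. Cdh5 and Pecam1 lay above it on 8 arrays each, Esam on 2, Kdr and Cldn5 on 1 each, and Emcn, Vwf and Tie1 on 0. The summed osteoblast markers had a log2 level of 13.2 to 13.5 with hPTH(1-34), of 13.2 to 13.4 with bPTH(7-34) and of 13.2 to 13.4 with vehicle. In the osteoblast, pericyte, macrophage and endothelial lists limma called 0 genes in any comparison, with 1, 5, 0 and 0 at an unadjusted p under 0.05 for hPTH(1-34) against vehicle, where 9.31% of all clusters reached it. Col1a1, Col1a2 and Sparc make up most of the osteoblast sum. Alpl, the alkaline phosphatase of osteoblasts, read 6.32, 6.73 and 6.38 with hPTH(1-34), 5.32, 5.62 and 5.51 with bPTH(7-34) and 5.26, 5.86 and 5.39 with vehicle. Its hPTH(1-34) arrays lay above all others, by a log2 difference of 0.97 ± 0.17 from vehicle (limma adjusted p = 0.0601) and of 0.99 ± 0.17 from bPTH(7-34) (adjusted p = 0.0539). In bulk samples such as these, fewer cells of a type and less RNA per cell cannot be told apart.

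The promoter windows of Rgs2, Rgs16, Rgs5 and Rgs4, the members on chromosome 1, are shown so that Rgs2, the gene with the clearest response, can be set beside other R4 members. Each runs 5′ to 3′ on the gene's own strand, 250 bases before and 50 after the RefSeq start (build GRCm38.p6), and capitals mark TGACG or its reverse complement CGTCA, the short form of the cAMP response element (CRE), to which CREB factors can bind.
Rgs2: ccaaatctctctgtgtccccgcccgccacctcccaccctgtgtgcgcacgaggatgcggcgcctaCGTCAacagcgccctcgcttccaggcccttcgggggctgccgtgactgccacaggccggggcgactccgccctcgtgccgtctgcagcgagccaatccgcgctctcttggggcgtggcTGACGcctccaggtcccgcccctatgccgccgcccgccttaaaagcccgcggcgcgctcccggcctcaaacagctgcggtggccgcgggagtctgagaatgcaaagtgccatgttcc
Rgs16: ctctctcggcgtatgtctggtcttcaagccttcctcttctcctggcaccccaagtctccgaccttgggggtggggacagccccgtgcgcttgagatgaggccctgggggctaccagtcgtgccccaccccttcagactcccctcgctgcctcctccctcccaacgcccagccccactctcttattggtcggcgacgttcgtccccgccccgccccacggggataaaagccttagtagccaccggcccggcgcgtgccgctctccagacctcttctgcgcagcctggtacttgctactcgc
Rgs5: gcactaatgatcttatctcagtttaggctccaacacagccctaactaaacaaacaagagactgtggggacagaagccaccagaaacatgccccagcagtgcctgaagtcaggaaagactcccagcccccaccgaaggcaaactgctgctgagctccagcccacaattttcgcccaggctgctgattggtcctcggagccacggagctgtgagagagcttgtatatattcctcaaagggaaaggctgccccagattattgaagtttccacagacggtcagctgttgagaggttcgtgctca
Rgs4: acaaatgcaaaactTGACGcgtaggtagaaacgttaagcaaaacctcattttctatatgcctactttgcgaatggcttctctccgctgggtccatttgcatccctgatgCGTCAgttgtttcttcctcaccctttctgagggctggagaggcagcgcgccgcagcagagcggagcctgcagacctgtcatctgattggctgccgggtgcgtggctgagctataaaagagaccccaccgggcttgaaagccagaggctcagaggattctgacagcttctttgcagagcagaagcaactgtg
The windows are chr1:144004100-144004399 (minus strand) for Rgs2, chr1:153740103-153740402 (plus strand) for Rgs16, chr1:169655251-169655550 (plus strand) for Rgs5 and chr1:169747593-169747892 (minus strand) for Rgs4. The Rgs2 window held 2 short sites, beginning at -185 and -67 from the start site, and the Rgs4 window also held 2, at -236 and -141. The windows of Rgs16 and Rgs5 held 0. Of 13 windows of 9 members in the table, 3 had a short site, the other belonging to Rgs12, against 20.8% of all 32851 windows. The full element TGACGTCA was in 0 of the 13 and in 1.79% of all windows. A CCAAT box (CCAAT or ATTGG) stood in 4 of the 13, the windows of Rgs2, Rgs4, Rgs5 and Rgs16, and in 37.4% of all windows. Rgs14 was not matched. A letter match is a description and marks no bound site.

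Rgs2 rose after hPTH(1-34), and it was the single member that passed the test in any comparison. Its log2 level was 5.29, 5.36 and 5.68 on the hPTH(1-34) arrays, 4.35, 3.76 and 4.31 on the bPTH(7-34) arrays and 4.47, 3.84 and 3.94 on the vehicle arrays. The 3 hPTH(1-34) arrays all lay above the 6 others, and the bPTH(7-34) and vehicle arrays overlapped. The mean was 5.44 ± 0.21 with hPTH(1-34), 4.14 ± 0.33 with bPTH(7-34) and 4.08 ± 0.34 with vehicle (SD, n = 3 each), so in this order the last 2 groups did not differ beyond their spread. The rise over vehicle was 2.57-fold, a log2 change of 1.36 ± 0.21 (SE, 95% interval 0.89 to 1.83, limma adjusted p = 0.0377). Among all genes by p for that comparison, Rgs2 ranked 64.

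Against bPTH(7-34), Rgs2 was 2.47-fold higher with hPTH(1-34) (log2 difference 1.30 ± 0.21, 95% interval 0.83 to 1.78, limma adjusted p = 0.0389). Because the doses differed between the peptides (100 nM and 1 µM), these values stand side by side and are not a comparison at a matched dose. bPTH(7-34) against vehicle gave 0.06 (95% interval -0.42 to 0.53, adjusted p = 0.999). Over the 3 groups together, Rgs2 passed the limma F-test (adjusted p = 0.0458) as 1 of 10 members, where 0.383% of all clusters passed. The members were chosen with the rise of Rgs2 known, so this count is no independent support. The 3 comparisons share arrays in pairs and are not independent of each other.

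A dimmer Rgs2 cluster gave no usable reading. It stood at 1.48, 1.18 and 1.57 with hPTH(1-34), at 1.01, 1.16 and 1.28 with bPTH(7-34) and at 1.20 on each vehicle array, below the background limit on all 9 arrays. Averaging both clusters left a log2 change of 0.79 for hPTH(1-34) against vehicle (limma adjusted p = 0.0534). The call on the brighter cluster was also lost in 6 of 9 fits that left out 1 array, those without hPTH(1-34) array 2 or 3, bPTH(7-34) array 1 or 3, or vehicle array 2 or 3, with a log2 change of 1.24 to 1.55, an adjusted p of 0.0329 to 0.193 and an unadjusted limma p of 4.82e-05 to 0.000750 over the 9 fits. Between the peptides the call was kept in 2 of 9 such fits, those without hPTH(1-34) array 1 or vehicle array 1, at a log2 difference of 1.11 to 1.41 over the 9. The F-test over the 3 groups together called a member in 1 of 9 such fits.

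**Figure D1:**
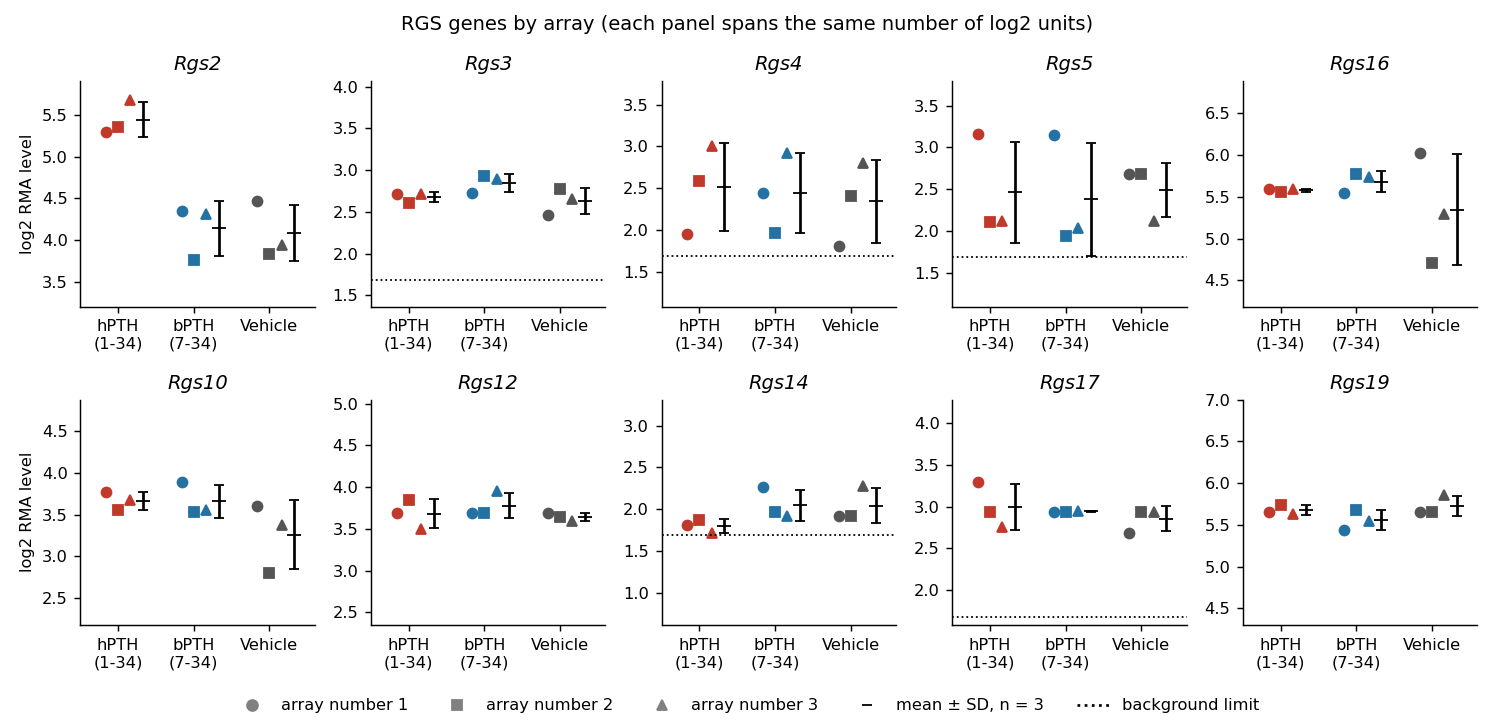
Log2 RMA level (y axis, each panel spanning the same number of log2 units) of the 10 RGS genes on each array by group, with the mean and SD of 3 arrays beside the points; marker shapes give the array number and the dotted line the background limit of 1.68. For Rgs2 the hPTH(1-34) arrays lie at 5.29 to 5.68, above all other arrays, while in the other panels the points of hPTH(1-34) and vehicle overlap except for Rgs14.

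Counted over the 10 members, hPTH(1-34) against vehicle gave 1 rise, 0 falls and 9 that did not pass, where 0.451% of all 23521 clusters passed in either direction. Since the rise of Rgs2 was known when the members were chosen, its part in the counts of this paragraph is no independent support. One member had an unadjusted limma p under 0.05, against 9.31% of all clusters, and the median log2 change of the members was 0.10, against 0.00 over all clusters. The arrays of the groups did not overlap for 2 members, Rgs2 and Rgs14, where 10.7% of all clusters showed such a separation. For bPTH(7-34) against vehicle limma called 0 of 10 members and 0% of all clusters. At an unadjusted p under 0.05 there were 0 members, against 3.32% of all clusters, and 0 members had groups that did not overlap, against 5.29%. hPTH(1-34) against bPTH(7-34) gave 1 higher member, Rgs2, and 0 lower, where 0.463% of all clusters passed. One member had an unadjusted p under 0.05, against 9.52% of all clusters. In that comparison the groups did not overlap for Rgs2, Rgs3 and Rgs14, against 11.1% of all clusters.

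The other R4 members showed no called change. Rgs16, a GTPase activator for Gi and Gq subunits, read 5.59, 5.56 and 5.59 with hPTH(1-34), 5.54, 5.77 and 5.74 with bPTH(7-34) and 6.03, 4.71 and 5.30 with vehicle. Its vehicle arrays spanned the levels of both peptide groups, and their SD of 0.66 stood against 0.02 with hPTH(1-34) and 0.13 with bPTH(7-34). The log2 change was 0.23 ± 0.27 for hPTH(1-34) and 0.34 ± 0.27 for bPTH(7-34), each against vehicle (limma adjusted p = 0.840 and 0.999). Single vehicle arrays decided these values: without vehicle array 1 the log2 changes were 0.58 and 0.68 (adjusted p = 0.271 and 0.916), and without vehicle array 2 they were -0.09 and 0.02.

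Rgs4, another activator for Gi and Gq subunits, differed more among arrays of a group than between groups. It read 1.95, 2.59 and 3.00 with hPTH(1-34), 2.44, 1.96 and 2.92 with bPTH(7-34) and 1.81, 2.41 and 2.80 with vehicle. Array number 3 was the highest of its group in all 3 groups. What the array number stands for was not tested. For hPTH(1-34) minus vehicle the log2 difference of Rgs4 was 0.17 (95% interval -0.59 to 0.94).

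Rgs5, which is known as a marker of pericytes, ran differently. It read 3.16, 2.11 and 2.12 with hPTH(1-34), 3.15, 1.94 and 2.04 with bPTH(7-34) and 2.68, 2.68 and 2.12 with vehicle. One array stood above the other 2 in each peptide group, and both times it was array number 1. The hPTH(1-34) change against vehicle was -0.03 (95% interval -0.87 to 0.81). Of 11 pericyte and smooth muscle markers 9 lay above the background limit on all 9 arrays, and their summed level, on the log2 scale, ran from 10.4 to 10.9 with hPTH(1-34), from 10.9 to 11.0 with bPTH(7-34) and from 10.8 to 11.0 with vehicle. The brightest markers set these sums, and 5 of the 11 had an unadjusted limma p under 0.05 for hPTH(1-34) against vehicle, in both directions. Cnn1 gave 2.03 ± 0.52 (adjusted p = 0.202), Mcam 0.47 ± 0.16, Kcnj8 0.72 ± 0.26, Pdgfrb -0.82 ± 0.28 and Acta2 -0.36 ± 0.16, Kcnj8 and Acta2 being named after their values were seen. The part of such cells in the Rgs5 levels was not tested. A dimmer Rgs5 cluster read 0.94 to 1.16, below the limit on all 9 arrays.

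Rgs3, whose product acts on Gi and Gq subunits, read 2.71, 2.61 and 2.71 with hPTH(1-34), 2.72, 2.93 and 2.89 with bPTH(7-34) and 2.46, 2.77 and 2.65 with vehicle. The bPTH(7-34) arrays lay just above the hPTH(1-34) arrays without overlap, by a log2 difference of -0.17 ± 0.11 for hPTH(1-34) minus bPTH(7-34) (limma adjusted p = 0.701).

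**Figure D2:**
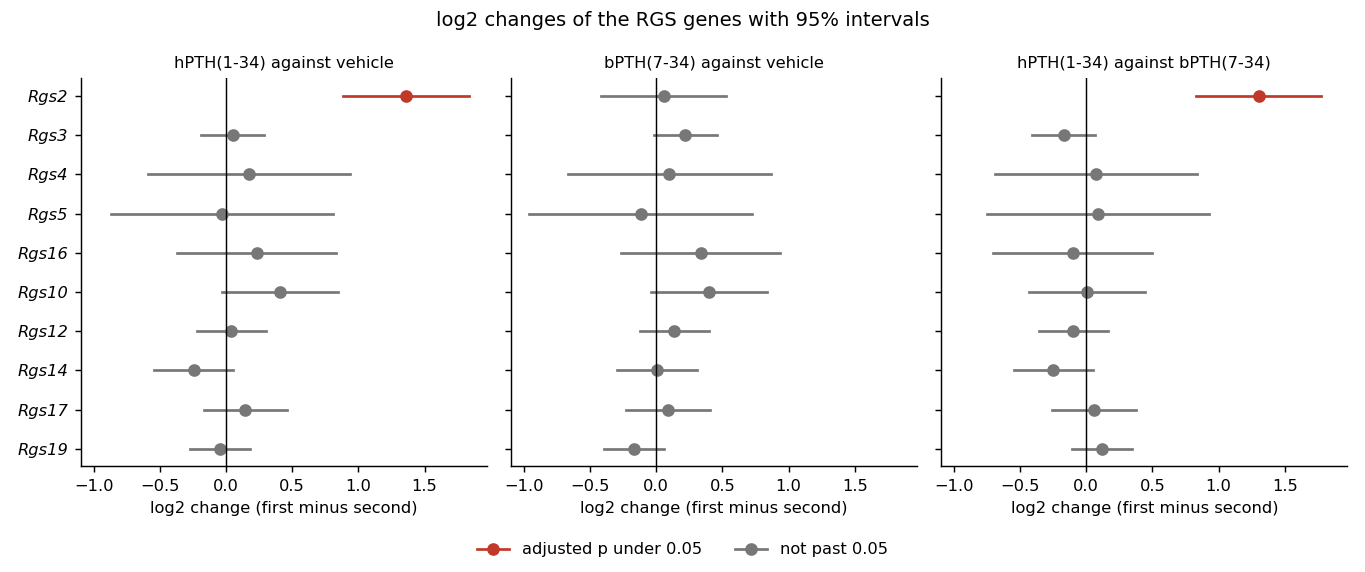
Log2 changes of the 10 RGS genes (x axis, first group minus second) with 95% intervals from the limma fit of 9 arrays, in 3 panels for hPTH(1-34) against vehicle, bPTH(7-34) against vehicle and hPTH(1-34) against bPTH(7-34). Rgs2 is the single gene past an adjusted p of 0.05, at 1.36 in the first panel and 1.30 in the third, and the intervals of the 9 others hold 0 in each panel.

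In the R12 subfamily, Rgs10 had the highest mean difference from vehicle with either peptide, and no member of it passed the test. RGS10 is a small member of the family, abundant in macrophages and microglia. It read 3.77, 3.56 and 3.67 with hPTH(1-34), 3.89, 3.53 and 3.56 with bPTH(7-34) and 3.60, 2.80 and 3.38 with vehicle. Vehicle array 2 was the lowest of all, and vehicle array 1 lay among the peptide arrays. The log2 change against vehicle was 0.41 ± 0.19 for hPTH(1-34) and 0.40 ± 0.19 for bPTH(7-34), 2 values that share the vehicle arrays (limma adjusted p = 0.570 and 0.999). Without vehicle array 2 the log2 changes were 0.18 and 0.17. Macrophage and blood cell markers had a summed log2 level of 7.21 to 9.02 with hPTH(1-34), of 7.41 to 8.61 with bPTH(7-34) and of 7.87 to 8.92 with vehicle. The highest of their sums lay in the hPTH(1-34) group, as did the lowest, and their part in the level of Rgs10 was not tested.

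RGS12 and RGS14 carry Ras-binding and GoLoco regions beside the RGS domain. Rgs12 read 3.69, 3.85 and 3.50 with hPTH(1-34), 3.69, 3.69 and 3.95 with bPTH(7-34) and 3.69, 3.64 and 3.59 with vehicle. All 3 groups overlapped, and the change for hPTH(1-34) against vehicle was 0.04 (95% interval -0.22 to 0.30). Rgs14 lay closest to background, with 1.81, 1.87 and 1.71 with hPTH(1-34), 2.26, 1.96 and 1.92 with bPTH(7-34) and 1.92, 1.92 and 2.28 with vehicle. Its hPTH(1-34) arrays lay below all others, but by a log2 difference of -0.24 ± 0.13 from vehicle (limma adjusted p = 0.638) and of -0.25 ± 0.13 from bPTH(7-34) (adjusted p = 0.623).

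Of the RZ subfamily, RGS17 acts on Gz and other Gi-class subunits, and RGS19, also called GAIP, was found as a partner of a Gi alpha subunit. Rgs19 read 5.66, 5.74 and 5.63 with hPTH(1-34), 5.44, 5.68 and 5.55 with bPTH(7-34) and 5.65, 5.66 and 5.86 with vehicle. Its change of -0.05 for hPTH(1-34) against vehicle had the narrowest 95% interval of the members, -0.27 to 0.18. Rgs17 read 3.30, 2.94 and 2.76 with hPTH(1-34), 2.94, 2.94 and 2.95 with bPTH(7-34) and 2.68, 2.94 and 2.94 with vehicle. The 3 groups overlapped, and the log2 difference for hPTH(1-34) minus vehicle was 0.15 (95% interval -0.17 to 0.46).

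Rgs2 stood above background and its neighbours on chromosome 1 did not. In the RefSeq table Rgs2, Rgs13, Rgs1, Rgs21 and Rgs18 follow each other with 0 other protein-coding genes between them. Rgs2 lay above the background limit on all 9 arrays, and the 4 neighbours on 0 arrays, with values of 1.03 to 1.46 for Rgs13, 1.03 to 1.40 for Rgs1, 0.84 to 1.25 for Rgs21 and 0.99 to 1.05 for Rgs18. No change can be measured for a gene at background, and the neighbours' log2 changes for hPTH(1-34) against vehicle ran from -0.09 to 0.10. Rgs5 and Rgs4 are also adjacent in the table, as are Rgs8 and Rgs16.

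**Figure D3:**
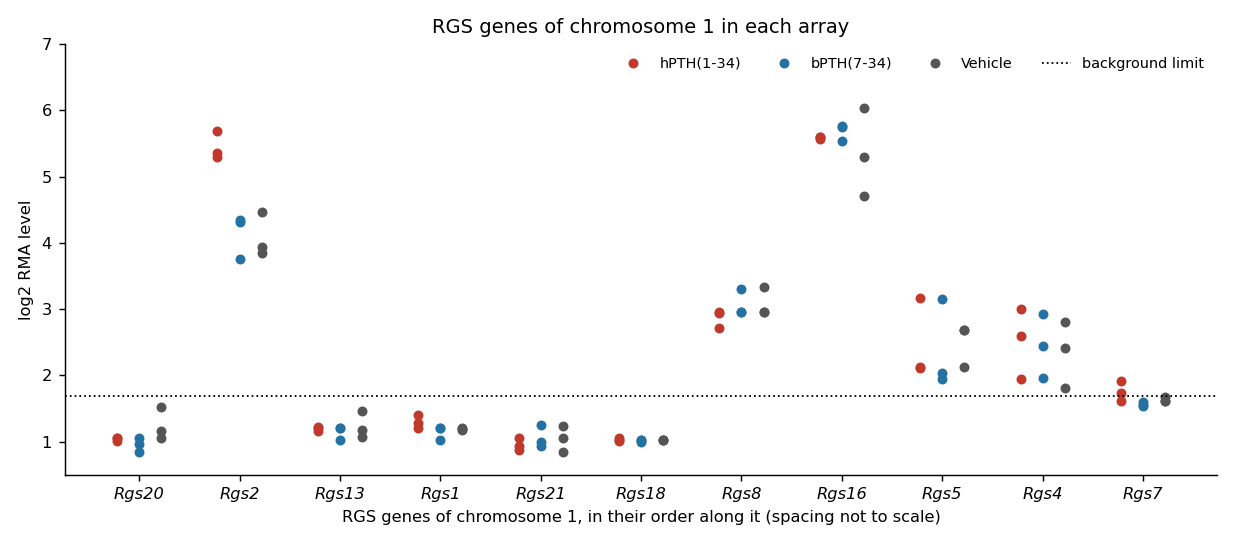
Log2 RMA level (y axis) on each of 9 arrays for the RGS genes of chromosome 1, in their order along it (x axis, spacing not to scale), coloured by group, with the background limit of 1.68 dotted. Rgs2 stands at 3.76 to 5.68, with hPTH(1-34) on top, beside Rgs13, Rgs1, Rgs21 and Rgs18, which all lie below the limit.

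Of 11 other canonical RGS genes measured, 0 rose and 0 fell in any comparison. Of all clusters 0.451% passed for hPTH(1-34) against vehicle, 0% for bPTH(7-34) against vehicle and 0.463% between the peptides. Among the 11 genes, 3 lay above the background limit on all 9 arrays, namely Rgs8, Rgs9 and Rgs11, and 6 on 0 arrays. At an unadjusted limma p under 0.05 there were 0 of the 11 for hPTH(1-34) against vehicle, where 9.31% of all clusters reached it. There was 1 for bPTH(7-34) against vehicle (3.32% of all clusters), Rgs20 with -0.29 ± 0.13, and there were 0 between the peptides (9.52%). The changes of the 11 genes for hPTH(1-34) against vehicle ran from -0.21 to 0.22, with a median of -0.01. The smallest p belonged to Rgs6, of the R7 subfamily, with 0.22 ± 0.10 (limma adjusted p = 0.555), then Rgs20, which lay above the background limit on 0 arrays and so gave no measurable change, and Rgs8 with -0.21 ± 0.14. Rgs6 itself lay above the limit on 3 of 9 arrays. Of all 21 canonical RGS genes, Rgs2 alone passed. Its rise was known when the members were chosen, so this count is no independent support.

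Among other genes of G protein signalling, Gnao1, the alpha subunit of Go, was the 1 called for hPTH(1-34) against vehicle. It read 5.78, 5.98 and 5.91 with hPTH(1-34), 5.25, 5.41 and 5.31 with bPTH(7-34) and 5.42, 5.14 and 5.13 with vehicle. The hPTH(1-34) arrays lay above all others, by a log2 change of 0.66 ± 0.11 over vehicle (limma adjusted p = 0.0449) and of 0.57 ± 0.11 over bPTH(7-34) (adjusted p = 0.0719). In its list of 16 alpha subunits 1 rose and 0 fell, with a median of -0.04, where 0.451% of all clusters passed. The call for Gnao1 was kept in 2 of 9 fits that left out 1 array, those without hPTH(1-34) array 1 or vehicle array 1, and lost when the arrays were shifted to one median (adjusted p = 0.0604), with the array number as a block (adjusted p = 0.0793), with all clusters tested (adjusted p = 0.127) and with only the 6 arrays compared (adjusted p = 0.168). Gnaq, the main Gq alpha subunit and a substrate of RGS2, gave -0.45 ± 0.16 (adjusted p = 0.410). Gnaz, a target of RGS17, gave 0.31 ± 0.20 (adjusted p = 0.687) and lay above the background limit on 2 of 9 arrays.

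In the other lists 0 genes passed for hPTH(1-34) against vehicle. Of 14 measured beta and gamma subunits, at a median of 0.05, the gamma subunit Gng4 gave 1.10 ± 0.29 (limma adjusted p = 0.217), Gnb4 -0.61 ± 0.21 and Gnb3 0.18 ± 0.11. Of 15 Gq effector and second messenger genes, at a median of -0.02, Arhgef25 gave -0.58 ± 0.12 (adjusted p = 0.108), the protein kinase C gene Prkce 0.67 ± 0.17 and the phospholipase gene Plcb4 -0.34 ± 0.19. Of 14 other proteins with an RGS homology domain, at a median of 0.01, the kinase anchor Akap10 gave 0.33 ± 0.10 (adjusted p = 0.312) and Arhgef1 -0.17 ± 0.09, while Grk4 lay above the background limit on 0 arrays. Of 9 R7 partners and GoLoco proteins, at a median of -0.03, Rap1gap gave -0.25 ± 0.11 (adjusted p = 0.538), Rgs7bp 0.24 ± 0.13 and Rgs9bp -0.20 ± 0.14. All 3 lay near the limit: Rap1gap was above it on 7 of 9 arrays, with 1.69, 1.69 and 1.47 on the hPTH(1-34) arrays, Rgs7bp on 2 and Rgs9bp on 1.

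Of 16 Gq-coupled receptors, at a median of 0.07, the lysophosphatidic acid receptor Lpar1 gave -0.46 ± 0.10 for hPTH(1-34) against vehicle (limma adjusted p = 0.121), the prostaglandin F receptor Ptgfr 0.76 ± 0.19 and the nucleotide receptor P2ry2 0.75 ± 0.21. For bPTH(7-34) against vehicle, limma called 0 members in all these lists. Between the peptides P2ry6, another nucleotide receptor, named here after its values were seen, was 1 of 16 receptors that passed. Of all clusters, 0.463% passed in that comparison. At an unadjusted limma p under 0.05 there were 8 of 16 receptors between the peptides, against 9.52% of all clusters. There were 4 for hPTH(1-34) against vehicle (9.31% of all clusters) and 1 for bPTH(7-34) against vehicle (3.32%). P2ry6 read 4.12, 4.01 and 4.24 with hPTH(1-34), 3.42, 3.54 and 3.34 with bPTH(7-34) and 4.01, 4.01 and 4.02 with vehicle. The bPTH(7-34) arrays lay below all others, with a log2 difference of 0.69 ± 0.09 for hPTH(1-34) minus bPTH(7-34) (adjusted p = 0.0235), while bPTH(7-34) minus vehicle gave -0.58 ± 0.09 (adjusted p = 0.776). Without hPTH(1-34) array 2 or 3, any bPTH(7-34) array, or vehicle array 2 or 3 the difference between the peptides no longer passed.

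**Figure D4:**
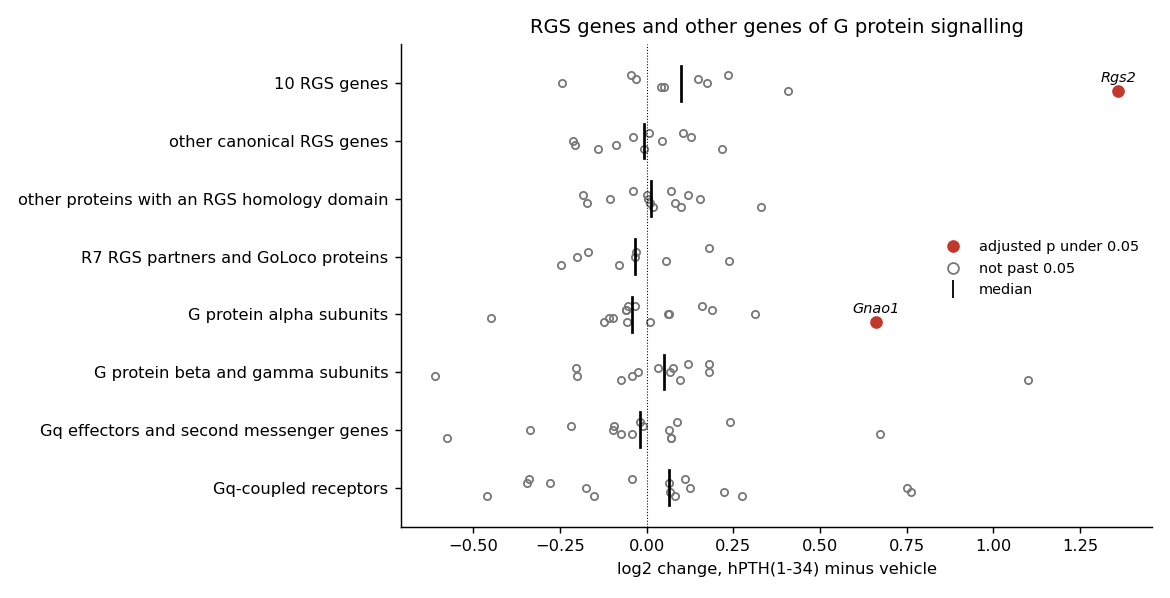
Log2 change for hPTH(1-34) minus vehicle (x axis) of each gene in the 10 RGS genes and 7 lists of G protein signalling genes (rows), with filled points for an adjusted p under 0.05 and a black bar for the median of each row. Rgs2 at 1.36 and Gnao1 at 0.66 are the filled points, and the medians lie between -0.04 and 0.10.

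The profile of Rgs2 over the 9 arrays was set against those of 18834 genes, after each gene's own mean was subtracted. The 5 with the smallest root mean square difference were Iqgap2, a scaffold protein of the cytoskeleton (0.13 log2 units), Abhd5, the coactivator of the triglyceride lipase (0.17), the interleukin receptor Il17ra (0.18), the cAMP phosphodiesterase Pde3b (0.18) and Cdr2l (0.20), where Rgs2 itself spanned 1.92. Iqgap2 read 6.81, 6.85 and 6.91 with hPTH(1-34), 5.75, 5.39 and 5.66 with bPTH(7-34) and 5.74, 5.39 and 5.32 with vehicle. Like Rgs2 it was high on all 3 hPTH(1-34) arrays and among the others lower on bPTH(7-34) array 2 and vehicle arrays 2 and 3. Being chosen for this likeness, these genes' changes are a description. For hPTH(1-34) minus vehicle on the log2 scale they were 1.37 ± 0.13 for Iqgap2, 1.21 ± 0.11 for Abhd5 and 1.09 ± 0.22 for Il17ra. Pde3b gave 1.02 ± 0.24 and Cdr2l 1.27 ± 0.20. Il17ra and Pde3b did not pass the test (limma adjusted p = 0.0836 and 0.161). Iqgap2 and Abhd5 passed and kept the call in 5 of 9 fits that left out 1 array, and Cdr2l passed and kept it in 1 of 9.

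**Figure D5:**
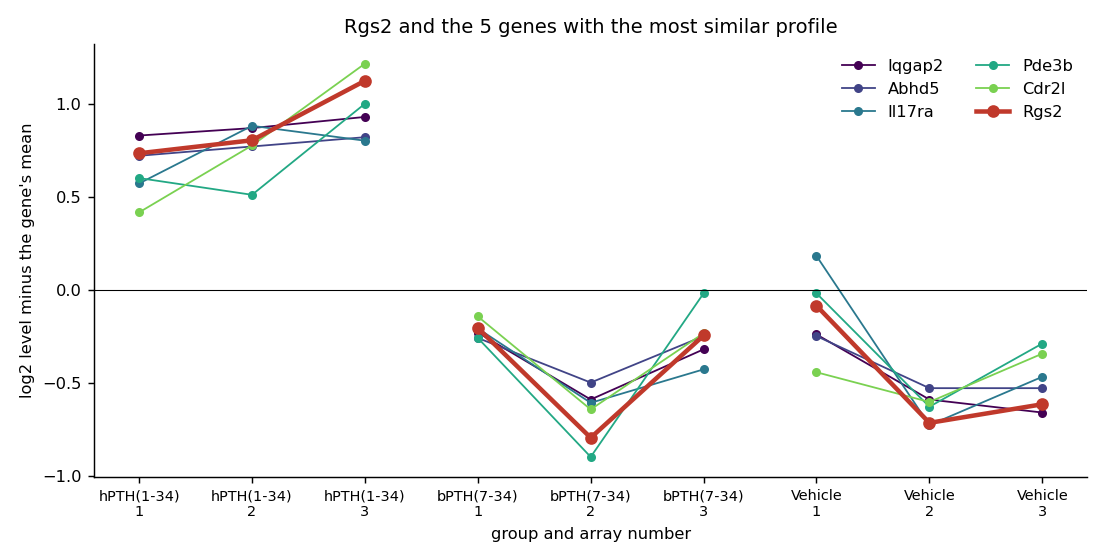
Log2 level minus each gene's mean over 9 arrays (y axis) on each array (x axis, by group and array number) for Rgs2 and the 5 genes whose profile differed least from it; lines join arrays of a group for legibility alone. All 6 genes are high on the hPTH(1-34) arrays, and the closest, Iqgap2, differs from Rgs2 by a root mean square of 0.13.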

How the data were processed

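Expression was measured in 9 samples on Affymetrix Mouse Gene 2.0 ST arrays from 100 ng of RNA each. The deposited values are log2 expression per transcript cluster, made by the authors with Affymetrix Expression Console and RMA, per the submitters' processing notes (versions and genome build not given in the sources used here), and rounded to 2 decimals. RMA fits background and scales all arrays to one distribution, so a shift shared by all genes cannot be seen, and changes near background are compressed. Precision is set by 3 arrays a group, since arrays carry no counts.

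Of 41345 clusters, 23521 had 1 symbol in the probe annotation, 1814 several and 16010 none. All 10 members were found, with 12 clusters, and all 10 lay above the background limit on all 9 arrays. All 23521 clusters were fitted by limma (version 3.58.1, under R 4.3.3) in one model (9 arrays, group as the only term, 6 residual and 3.20 prior degrees of freedom), two-sided, with Benjamini-Hochberg adjustment over all of them within a comparison and a threshold of 0.05. Errors beside levels are SD of 3 arrays, errors beside changes are SE of the fit. The fit was tested on simulated data.

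The members and lists were chosen with earlier results of these data known, among them the rise of Rgs2, which is therefore no independent support. The rule for names took all 10 members, in each list up to 3 genes of lowest p between hPTH(1-34) and vehicle (marker lists are summed), and the 5 genes most like Rgs2, without predicted and small RNA genes. The 11 lists held 146 genes, 134 of them measured. Alternatives were array weights, the array number as a block, quantile normalisation, a common median, a robust eBayes with trend, the whole table, a minimum mean log2 of 3 or 5, the mean of a member's clusters, 1 cluster for each gene, the 6 arrays compared, and each array left out. The same fits for genes outside the members were added after seeing the data. Promoter sequences are from RefSeq (GRCm38.p6). Plots used matplotlib 3.10.9 in Python 3.11.15. Where labels do not name separate animals, p-values measure the spread between these samples.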

Additional observations from a re-analysis of the deposited data

How the results depend on the processing

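The Rgs2 change for hPTH(1-34) against vehicle kept its sign in every alternative run that included it, at 1.24 to 1.55 without 1 array. Its call was lost with all clusters tested (1.36, limma adjusted p = 0.114, 16 clusters called against 106), with only the 6 arrays compared (1.36, adjusted p = 0.112, 0 clusters called) and with the mean of its clusters (0.785, adjusted p = 0.0534). The count of members called in this comparison, between the peptides and in the F-test was 0 instead of 1 with all clusters and with the mean of a member's clusters. It was also 0 instead of 1 with a mean log2 of at least 5, where 2 members and not Rgs2 remained to be tested. With the 6 arrays compared it was 0 in both pairwise comparisons. Without 1 array these counts ran from 0 to 1. A mean log2 of at least 3 (5 members tested), quantile normalisation, the median shift, the trended fit, array weights and 1 cluster per gene left them at 1. For bPTH(7-34) against vehicle the count was 0 in each alternative. No called change turned its sign. Among changes for hPTH(1-34) against vehicle that were not called, the sign turned without 1 array for Rgs3, Rgs4, Rgs5, Rgs12, Rgs16, Rgs17 and Rgs19, and not for Rgs10 and Rgs14. Apart from fewer members, clusters or arrays in a fit, the cause was not tested. Over all clusters, counts for hPTH(1-34) against vehicle ran from 0 to 259 without 1 array, and were 186, 182 and 166 with a mean log2 of at least 3, of at least 5 and with array weights.

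With the replicate block, Rgs2 gave 1.36 with adjusted p = 0.0373, 1 member was called, and 112 clusters in all, while the call of Gnao1 was lost (0.66, adjusted p = 0.0793). The numbers were not taken to pair the arrays, since deviations of same-numbered arrays correlated above 0.1 in 6 of 9 pairs (0.06 to 0.36), although arrays correlated best with their own number in 17 of 18 checks. Subtracting vehicle from hPTH(1-34) within numbers 1, 2 and 3 gave 0.82, 1.52 and 1.74 for Rgs2.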
